A study of Mus musculus with 12 samples.

Results

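The mitochondrial ribosomal protein genes were described in mouse embryonic fibroblasts, as the 78 of 25117 gene symbols that read Mrpl or Mrps followed by a number and at most 1 letter. Symbols alone chose them, and no measured value did. All 78 had at least 1 TPM in at least 3 libraries and were tested, among 12653 genes tested in all. TPM is a relative abundance of transcripts, corrected for their length. The cells carried floxed alleles of Rbbp5 and Cre at the Rosa26 locus in every group, including the controls. RBBP5 belongs to the core of the complexes that place methyl groups on lysine 4 of histone H3. Cells given tamoxifen for 7 days were labelled RBBP5 KO, and cells without tamoxifen were labelled wildtype. Each kind then spent 16 hours in serum-containing DMEM, called full medium, or in EBSS, a balanced salt solution that lacks serum and amino acids. This gave 4 groups of 3 libraries, named wildtype or KO, full medium or EBSS. Only KO cells had tamoxifen, so what tamoxifen or active Cre did and what the loss of RBBP5 did cannot be told apart. In bulk RNA, fewer cells of a type and less RNA per cell cannot be told apart either. The labels call the libraries biological replicates, but nothing says that they came from separate animals or cultures, and the p-values measure only the spread between these libraries.

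Mitochondria hold their own ribosome, which translates the few mRNAs of mitochondrial DNA, all of them for subunits of the respiratory chain and the ATP synthase. Its RNAs come from mitochondrial DNA, while every one of its proteins is encoded in the nucleus, made in the cytosol and imported. A large and a small subunit hold 1 copy of most proteins. Many of these descend from bacterial ribosomal proteins, and others exist only in mitochondria. NRF1, ETS factors such as GABP, and YY1 are known as regulators of nuclear genes for mitochondrial proteins.

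By known place in the ribosome, 51 members belong to the large subunit and 26 to the small subunit. Mrps30 and Mrps18a carry the small-subunit prefix, yet their proteins sit in the large subunit. Mrps36 is now known as a part of the 2-oxoglutarate dehydrogenase complex and is the 1 member outside the ribosome. In the grouping by origin used here, 47 members were listed with a bacterial counterpart and 30 as mitochondria-specific. The members were spread over 17 chromosomes, with at most 11 on one of them (chromosome 11). Their median transcript length in GENCODE vM21 was 1224.5 bases, from 440.5 for the shortest to 6073 for the longest, against 2627.5 bases for all tested genes with a length. Of the 78, 18 (23.1%) had the start of a protein-coding gene on the other strand within 1000 bases upstream, against 10.6% of 11864 tested protein-coding genes. These partners included Hira beside Mrpl40, Sars2 beside Mrps12 and Psma2 beside Mrpl32. On the gene models, 36 members overlapped a gene on the opposite strand and 13 overlapped one on the same strand. Whether the counting used strand is not given in the sources used here, so reads of overlapping genes may be shared.

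Promoters were read from RefSeq (GRCm38.p6) as windows of 300 bases, 250 before and 50 after each annotated start. Of the members, 69 had an entry, with 75 windows. The letters CCGGAAG, the core of an ETS or GABP site, stood on either strand in 34.7% of member windows and in 8.86% of all 32851 windows (17.5% of windows of tested genes). GCGCATGC, part of the NRF1 site, stood in 10.7%, against 2.71% of all windows and 5.09% of those of tested genes. AAGATGG, the core of the YY1 site, stood in 17.3%, against 6.34% and 7.0%. CCAAT, the CCAAT box, was in 40.0% against 37.4% and 38.2%, CACGTG (the E-box) in 9.33% against 7.15% and 9.93%, and TATAAA (the TATA box) in 6.67% against 13.6% and 7.32%. No motif's letters contain those of another. The median GC content of member windows was 58.7%, against 52.7% in all windows and 61.0% in those of tested genes. These matches describe letters in a window, not bound sites. Among the members with an entry, CCGGAAG was found for 15 of the 42 that rose in KO, full medium (below), for 4 of the 7 that fell and for 7 of the 20 that were not called. The other 2 motifs of mitochondrial regulators were found for 6 (NRF1) and 9 (YY1) of the 42, for 1 and 0 of the 7, and for 1 and 4 of the 20.

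The windows of 4 members are shown because their genes had the largest falls (Mrpl33, Mrpl3) and the largest rises (Mrpl55, Mrpl41) in KO, full medium. Capitals mark the letters of any of the 6 motifs on either strand. Mrpl33 (chr5:31613701-31614000, plus strand) holds the NRF1 and ETS letters and a CCAAT box, and Mrpl3 (chr9:105053018-105053317, plus strand) holds the ETS letters and CCAAT boxes. The GENCODE gene model of Mrpl33 starts earlier, at 31596935, so the window of Mrpl33 lies inside that model and not at its start. Mrpl41 (chr2:24975049-24975348, minus strand) holds only CCAAT boxes, and Mrpl55 (chr11:59202236-59202535, plus strand) holds none of the 6. The windows of the next largest fall, Mrps2, and the next largest rise, Mrpl14, are not shown. Each of them also holds none of the 6, so the ETS letters did not mark every large fall.
Mrpl33: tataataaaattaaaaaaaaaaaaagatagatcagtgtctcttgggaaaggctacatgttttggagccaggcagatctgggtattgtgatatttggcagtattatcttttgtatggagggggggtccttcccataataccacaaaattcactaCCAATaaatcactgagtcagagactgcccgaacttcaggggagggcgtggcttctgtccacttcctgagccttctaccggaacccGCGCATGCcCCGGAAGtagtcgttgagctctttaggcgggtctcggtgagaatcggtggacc
Mrpl3: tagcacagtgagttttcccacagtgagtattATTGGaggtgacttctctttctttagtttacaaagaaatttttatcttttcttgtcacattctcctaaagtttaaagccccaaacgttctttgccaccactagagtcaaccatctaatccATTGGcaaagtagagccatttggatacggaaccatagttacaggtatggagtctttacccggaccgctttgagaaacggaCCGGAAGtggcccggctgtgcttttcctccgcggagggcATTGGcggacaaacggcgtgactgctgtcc
Mrpl41: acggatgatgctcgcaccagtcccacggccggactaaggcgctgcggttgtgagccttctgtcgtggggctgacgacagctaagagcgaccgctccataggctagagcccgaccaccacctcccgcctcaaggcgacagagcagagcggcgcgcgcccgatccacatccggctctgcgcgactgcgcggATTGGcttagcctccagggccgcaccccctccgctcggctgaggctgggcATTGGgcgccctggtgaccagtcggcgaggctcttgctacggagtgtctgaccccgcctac
Mrpl55: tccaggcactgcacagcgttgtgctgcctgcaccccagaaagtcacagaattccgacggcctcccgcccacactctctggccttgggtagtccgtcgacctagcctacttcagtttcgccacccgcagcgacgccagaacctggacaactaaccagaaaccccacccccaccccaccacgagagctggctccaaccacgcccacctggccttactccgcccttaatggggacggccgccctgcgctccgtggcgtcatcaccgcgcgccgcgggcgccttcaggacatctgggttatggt

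Several facts of the libraries touch every result. Rbbp5 mRNA lay at 25.7 to 26.2 TPM in wildtype, full medium and at 7.47 to 9.34 TPM in KO, full medium. In EBSS it lay at 11.8 to 14.0 TPM under the wildtype label and at 23.0 to 31.9 TPM under the KO label, which goes against both labels. With median-of-ratios scaling (below) the EBSS groups differed by 0.08 on the log2 scale (limma adjusted p = 0.56). Under that scaling Rbbp5 in labelled KO, EBSS was still 1.39 above KO, full medium (limma adjusted p = 3.7e-06). In labelled wildtype, EBSS it was at −0.03 against wildtype, full medium (limma adjusted p = 0.82). The scaled level thus goes against the KO label in EBSS and not against the wildtype label. Both EBSS groups are therefore called "labelled" throughout, and every direction between them rests on labels in doubt. In the group labelled wildtype, EBSS, cytosolic ribosomal protein genes took 32.8% to 35.4% of TPM, against 15.1% to 19.3% elsewhere, and the median tested gene lay at 10.1 to 10.6 TPM, against 17.5 to 23.0. In its replicate 3, 1122 tested genes were at 0, against 12 to 229 in each of the remaining libraries. No member was at 0 in any library. Because of these shifts the main counts over all 78 members are also given after median-of-ratios scaling. Counts by promoter motif and for the partner genes at shared starts are as deposited only. Over the 11892 genes above 0 in all libraries, each gene's ratio to its mean over libraries was taken. The scaling divides each library by the median of these ratios. It moved the median change of all genes from −0.17 to 0.01 for KO against wildtype in full medium, from 0.91 to 0.10 for the same labels in EBSS, from −0.94 to −0.10 for EBSS in labelled wildtype, and from 0.13 to 0.00 for EBSS in labelled KO. The 10 fibroblast markers summed to 7200 to 7350 TPM in wildtype, full medium, 5680 to 5910 TPM in KO, full medium, 4210 to 5180 TPM in labelled wildtype, EBSS and 4400 to 7340 TPM in labelled KO, EBSS. Among them, Pdgfra, Thy1 and Lum were below 1 TPM in all KO, full medium libraries, and Lum also in labelled wildtype, EBSS. The other 7, with Vim highest, were above it in every group. Of 5 epithelial markers Epcam and Cdh1 were below 1 TPM in every group, and the other 3, led by Krt19, brought the sum to 158 to 172 TPM in wildtype, full medium, 243 to 278 TPM in KO, full medium, 212 to 229 TPM in labelled wildtype, EBSS and 99.5 to 144 TPM in labelled KO, EBSS. The 6 macrophage markers summed to 60.8 to 65.4 TPM in KO, full medium (almost all Cd68), 17.0 to 17.3 TPM in wildtype, full medium, 17.8 to 77.0 TPM in labelled wildtype, EBSS and 17.3 to 21.0 TPM in labelled KO, EBSS. In labelled wildtype, EBSS 5 of these 6 reached 1 TPM, all but Ptprc, with Lyz2 highest at 48.4 TPM, against 1 or 2 of 6 in the other groups. The 4 skeletal muscle markers went from 1.76 to 2.14 TPM in wildtype, full medium to 52.9 to 65.9 TPM in KO, full medium, with Acta1 at 58.1 TPM and Myod1 and Myog below 1 TPM, and were at 6.5 to 16.4 TPM in labelled wildtype, EBSS and 2.69 to 4.58 TPM in labelled KO, EBSS. The 4 neural markers, led by Nes, summed to 150 to 163 TPM in wildtype, full medium, 75.6 to 84.7 TPM in KO, full medium, 44 to 60 TPM in labelled wildtype, EBSS and 99.6 to 184 TPM in labelled KO, EBSS. The 4 endothelial markers stayed at or under 7.25 TPM in sum. The part of these markers in the results below was not tested.

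In wildtype, full medium the members differed widely in level although the ribosome takes most of its proteins in equal number. The median member lay at 73.9, 75.2 and 75.8 TPM in the 3 libraries. Mrps25, a mitochondria-specific small-subunit protein, was lowest at 10.8, 11.9 and 11.7 TPM. Mrpl33, the counterpart of bacterial L33, was highest at 303, 288 and 304 TPM. Between the 10th and the 90th percentile of members the ratio was 6.74 to 7.24 in these libraries, 7.64 to 8.04 in KO, full medium, 7.48 to 7.74 in labelled KO, EBSS, and from 11 to 14.3 in labelled wildtype, EBSS. Over all 12 libraries Mrps25, Mrpl17 and Mrpl19 had the lowest means, and Mrpl54, Mrpl42 and Mrps21 the highest. The first 3 have median transcript lengths of 6073, 4164 and 5000 bases, and the last 3 of 604, 661 and 446.5 bases. Replicates differed little in 3 groups: the median coefficient of variation of a member was 3.43% in wildtype, full medium, 6.82% in KO, full medium, 7.14% in labelled KO, EBSS and 16.3% in labelled wildtype, EBSS. In replicate 3 of that last group 7 members lay at least 2-fold from the mean log value of the other 2 libraries: Mrpl4, Mrpl16, Mrpl23, Mrpl36, Mrpl46, Mrpl58 and Mrps22.

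Summed over the 78 genes, the level as deposited was 6643, 6631 and 6672 TPM in wildtype, full medium and 9501, 8627 and 9062 TPM in KO, full medium. It was 4264, 4432 and 4266 TPM in labelled wildtype, EBSS and 6957, 6604 and 6681 TPM in labelled KO, EBSS. The KO, full medium libraries were the highest and the labelled wildtype, EBSS libraries the lowest, with no overlap, while labelled KO, EBSS overlapped wildtype, full medium. With median-of-ratios scaling the sums were 5375, 5388 and 5359 in wildtype, full medium, 9303, 7704 and 8109 in KO, full medium, 7194, 7099 and 6676 in labelled wildtype, EBSS, and 5511, 5588 and 5704 in labelled KO, EBSS. KO, full medium stayed highest under that scaling, but labelled wildtype, EBSS moved from the lowest place to the second highest. The ratio of summed large-subunit to small-subunit TPM lay between 2.08 and 2.13 in wildtype, full medium, between 2.02 and 2.18 in KO, full medium, between 1.96 and 2.02 in labelled KO, EBSS, and between 1.69 and 1.92 in labelled wildtype, EBSS.

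**Figure D1:**
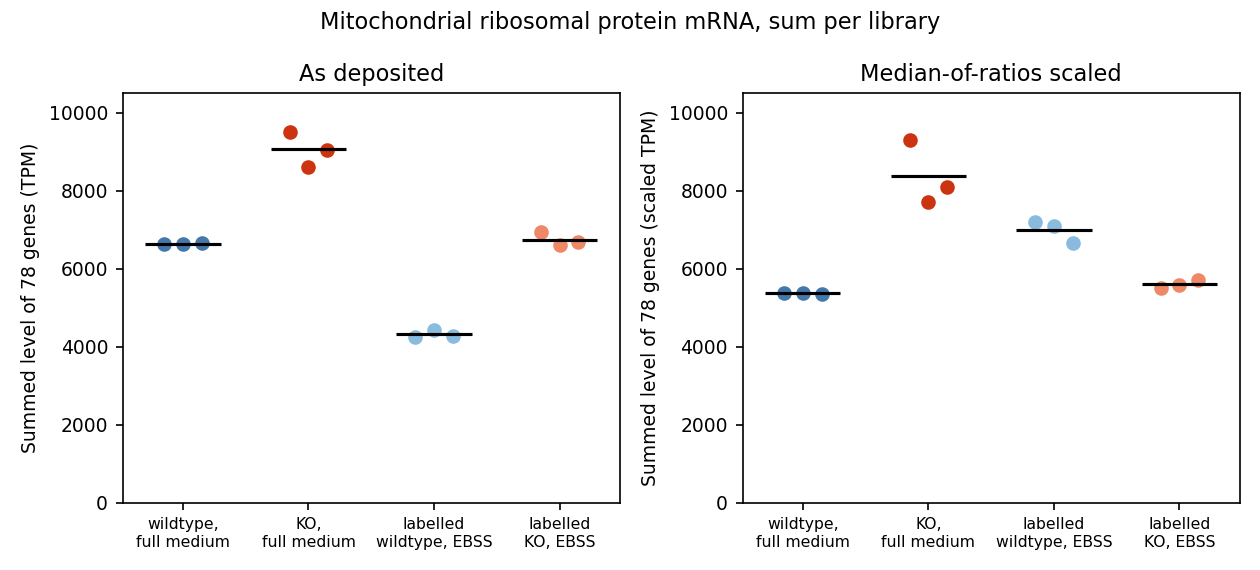
Summed level of the 78 mitochondrial ribosomal protein genes in each library (points; line, mean of 3 libraries) in the 4 groups, as deposited in TPM (left) and after median-of-ratios scaling (right). KO, full medium is highest in both panels, and labelled wildtype, EBSS is lowest on the left (4264 to 4432 TPM) but second highest on the right (6676 to 7194).

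The comparison of KO with wildtype in full medium shows what differed between cells with and without tamoxifen when nutrients were present. Most mitochondrial ribosomal protein mRNAs were higher in KO, and a few were lower. Of 78 members, 47 rose and 7 fell at a limma adjusted p below 0.05 while 24 were not called, against 20.1% of all tested genes called higher and 35.8% called lower. Each gene's spread was estimated over all 12 libraries, so the uneven labelled wildtype, EBSS group also entered these calls. Mrpl16 (0.38, SE 0.49) and Mrpl23 (−0.41, SE 0.44) were not called, although their full medium libraries did not overlap, as in 80.2% of all genes. A member that was not called is thus not shown to be unchanged. With median-of-ratios scaling 57 rose and 5 fell, against 26.7% and 27.0% of all genes. The members' median log2 change was 0.38 as deposited, 0.54 above the median of all genes, and 0.56 after scaling. Changes are on the log2(TPM + 1) scale. The change was lower for longer transcripts, with a Spearman's rho of −0.24 across all genes with a length and of −0.29 across the 78 members, all measured in the same libraries. With each library's trend on length removed, 43 members rose and 7 fell, against 27.5% and 25.7% of all genes.

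The rise was largest for Mrpl55, the counterpart of bacterial L31 (ENSMUSG00000036860.14, chromosome 11 from 59202486 to 59206134 on GRCm38). It was at 27.6, 28.9 and 31.7 TPM in wildtype and at 90.9, 76.7 and 73.1 TPM in KO, a log2 change of 1.41 (SE 0.10, limma adjusted p = 1e-06). Every KO library was above every wildtype library. Mrpl41, a mitochondria-specific protein of the large subunit (ENSMUSG00000036850.4, chromosome 2 from 24974117 to 24975098), went from 15.3, 17.3 and 15.7 TPM to 39.5, 37.8 and 43.2 TPM, a log2 change of 1.27 (SE 0.16, limma adjusted p = 4.7e-05). Mrpl14, the counterpart of bacterial L14 (chromosome 17 from 45686322 to 45698495), was at 75.1, 83.7 and 81.5 TPM in wildtype and at 210, 175 and 176 TPM in KO, a log2 change of 1.21 (SE 0.18, limma adjusted p = 0.00018). Its gene model overlaps that of Tmem63b on the opposite strand. Mrpl28, the counterpart of bacterial L28 (chromosome 17 from 26123500 to 26126613), overlaps no other gene and was at 129, 127 and 131 TPM in wildtype and at 299, 256 and 301 TPM in KO. Its log2 change was 1.14 (SE 0.08, limma adjusted p = 6.8e-07). In each of these 4 genes the libraries of the 2 groups did not overlap. That was a condition of their choice, and it held for 80.2% of all tested genes in either direction as deposited and for 81.1% scaled.

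All 7 members called lower are named here. Members that were lower without a call are not among them, such as Mrpl23, at 59.2, 58.8 and 62.6 TPM in wildtype and at 49.8, 40.8 and 45.0 TPM in KO. Mrpl33 (ENSMUSG00000106918.3, chromosome 5 from 31596935 to 31664384), the most abundant member in wildtype, fell from 303, 288 and 304 TPM to 144, 133 and 126 TPM, a log2 change of −1.15 (SE 0.11, limma adjusted p = 5.7e-06). In KO, full medium Mrpl42 or Mrpl54 was the highest member instead. The gene model of Mrpl33 overlaps that of Rbks on the opposite strand and that of Gm43809 on the same strand. Among the other falls, Mrpl3 overlaps Gm38077 on the same strand and Gm47106 on the opposite strand. Mrpl48 overlaps Cox20b, Gm44648 and Rab6a, and Mrpl24 overlaps Rrnad1, all on the opposite strand. Mrps2, Mrps16 and Mrpl11 overlap no other gene. Mrpl3, the counterpart of bacterial L3 (ENSMUSG00000032563.16, chromosome 9 from 105053239 to 105079888), fell from 99.5, 102 and 103 TPM to 52.8, 59.1 and 56.4 TPM, a log2 change of −0.85 (SE 0.09, limma adjusted p = 1.7e-05). Mrps2, the counterpart of bacterial S2 (chromosome 2 from 28468066 to 28471178), fell from 61.2, 61.2 and 57.3 TPM to 35.4, 38.5 and 35.6 TPM, at −0.70 (SE 0.10, limma adjusted p = 0.00017). Mrpl48, a mitochondria-specific large-subunit protein, was at 17.0, 15.5 and 16.7 TPM in wildtype and at 11.5, 9.87 and 11 TPM in KO, at −0.56 (limma adjusted p = 0.00054). The other 3, each with a bacterial counterpart, were Mrpl24 at −0.54, Mrps16 at −0.48 and Mrpl11 at −0.28. With median-of-ratios scaling Mrpl33, Mrpl3, Mrps2 and Mrpl48 still fell, by 0.96, 0.66, 0.51 and 0.38, as did Mrpl24 (−0.35, limma adjusted p = 0.027), while Mrps16 (−0.29, limma adjusted p = 0.23) and Mrpl11 (−0.098, limma adjusted p = 0.56) lost the call.

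**Figure D2:**
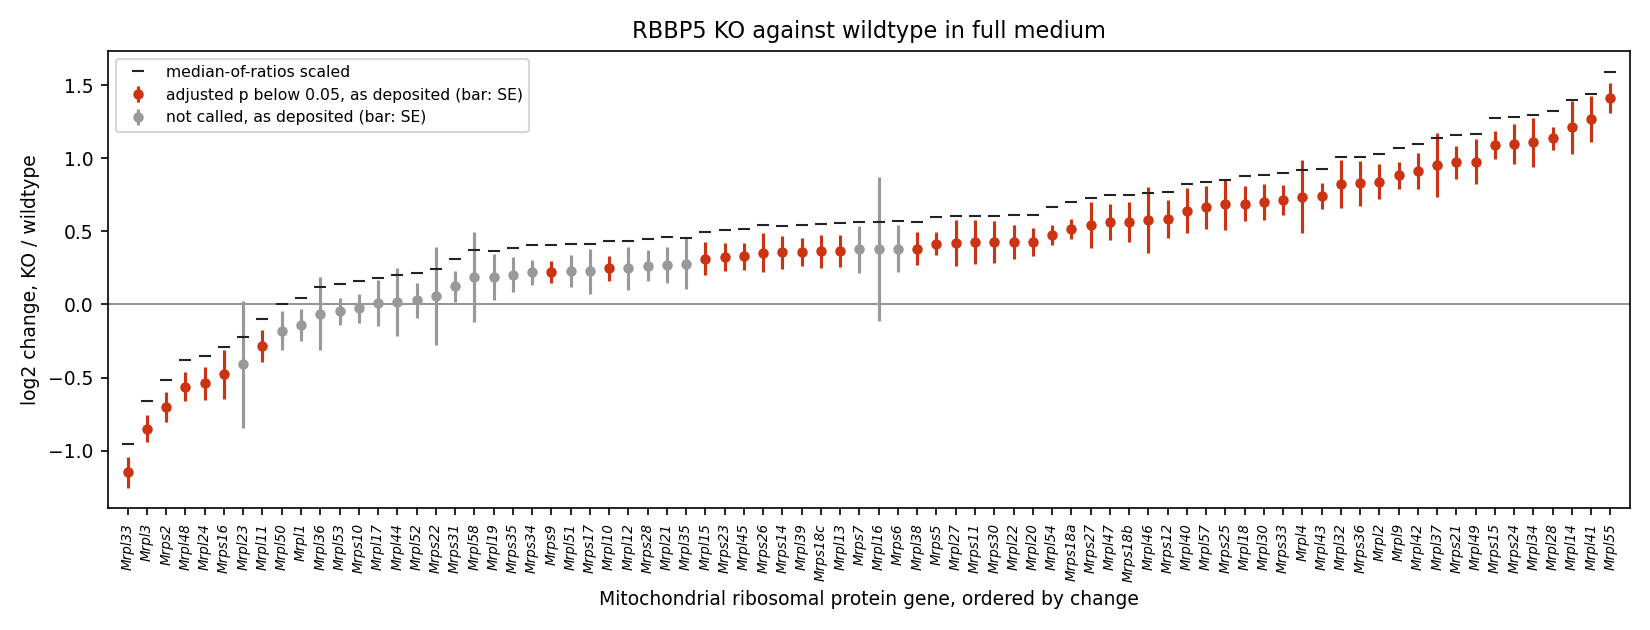
log2 change of each of the 78 members, KO against wildtype in full medium, ordered by size (points with SE bars, red where the limma adjusted p is below 0.05; dashes, median-of-ratios scaled). 47 red points lie above 0 and 7 below it, from Mrpl33 at −1.15 to Mrpl55 at 1.41.

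The change ran through both subunits. Of 51 large-subunit members 31 rose and 5 fell, with a median of 0.38, and of 26 small-subunit members 15 rose and 2 fell, with a median of 0.36. With median-of-ratios scaling 34 rose and 4 fell in the large subunit, and 22 rose and 1 fell in the small subunit. The share that rose was thus larger in the large subunit as deposited (60.8% against 57.7%) and smaller there when scaled (66.7% against 84.6%). Of 47 members listed with a bacterial counterpart 27 rose and 6 fell (median 0.38), and of 30 listed as mitochondria-specific 19 rose and 1 fell (median 0.37). Scaled, these counts were 33 and 4, and 23 and 1. The paralogs of bacterial S18 all rose. Mrps18a, in the large subunit, was at 154, 154 and 154 TPM in wildtype and at 238, 214 and 210 TPM in KO (0.51). Mrps18b and Mrps18c, in the small subunit, rose by 0.56 and 0.36, and Mrps30, in the large subunit despite its name, rose by 0.43 (limma adjusted p = 0.025). The call of Mrps18c was lost without replicate 1 of KO or replicate 2 of wildtype and with the length trend removed (0.08, limma adjusted p = 0.38), and that of Mrps30 without replicate 1 or 3 of KO or 2 or 3 of wildtype (limma adjusted p = 0.061 to 0.074). Mrps36, of the 2-oxoglutarate dehydrogenase complex, rose by 0.83, from 49.9, 55.5 and 53.4 TPM to 96.1, 102 and 86.6 TPM. Among the most abundant members, Mrps21, the counterpart of bacterial S21, rose by 0.97, Mrpl42 by 0.91 and Mrpl54 by 0.47. Mrps25, among the 3 with the lowest means, rose by 0.68, while Mrpl17 at 0.01 and Mrpl19 at 0.19 did not pass. For the 18 members that share a start region with a gene on the other strand, the median change was 0.57, and for their 18 partners it was 0.01, with 5 partners higher and 3 lower. For all tested genes the median was −0.17, with 20.1% called higher and 35.8% lower. Mrpl40 was at 0.64 beside Hira at −0.22, Mrps12 at 0.58 beside Sars2 at −0.65, and Mrpl32 at 0.82 beside Psma2 at 0.39. The partner stood below the member in 17 of the 18 pairs and above it in 1, Klc4 at 1.79 beside Mrpl2 at 0.84. The difference between members and partners was not tested.

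Of 5 further mitoribosomal proteins whose names do not start with Mrp, 3 rose and 1 fell, both as deposited and with median-of-ratios scaling. Of all genes, 20.1% were called higher and 35.8% lower as deposited, and 26.7% and 27.0% scaled. Gadd45gip1, of the large subunit, was at 57.1, 55.6 and 57.5 TPM in wildtype and at 110, 83.8 and 104 TPM in KO (0.79, limma adjusted p = 9.4e-05). Dap3, the GTP-binding protein of the small subunit, rose by 0.37 and Aurkaip1, also of the small subunit, by 0.29. Both calls were weak, since that of Dap3 was lost without any 1 of 5 of the 6 full medium libraries (all but replicate 2 of KO) or replicate 2 or 3 of labelled KO, EBSS, and that of Aurkaip1 without replicate 1 of KO or replicate 1 or 3 of wildtype. Chchd1, of the small subunit, fell from 107, 119 and 122 TPM to 85.1, 82.3 and 92.1 TPM (−0.42, limma adjusted p = 0.0011). Ptcd3, a pentatricopeptide repeat protein of the small subunit, was at −0.10 and did not pass, and it was at 0.08 with median-of-ratios scaling.

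**Figure D3:**
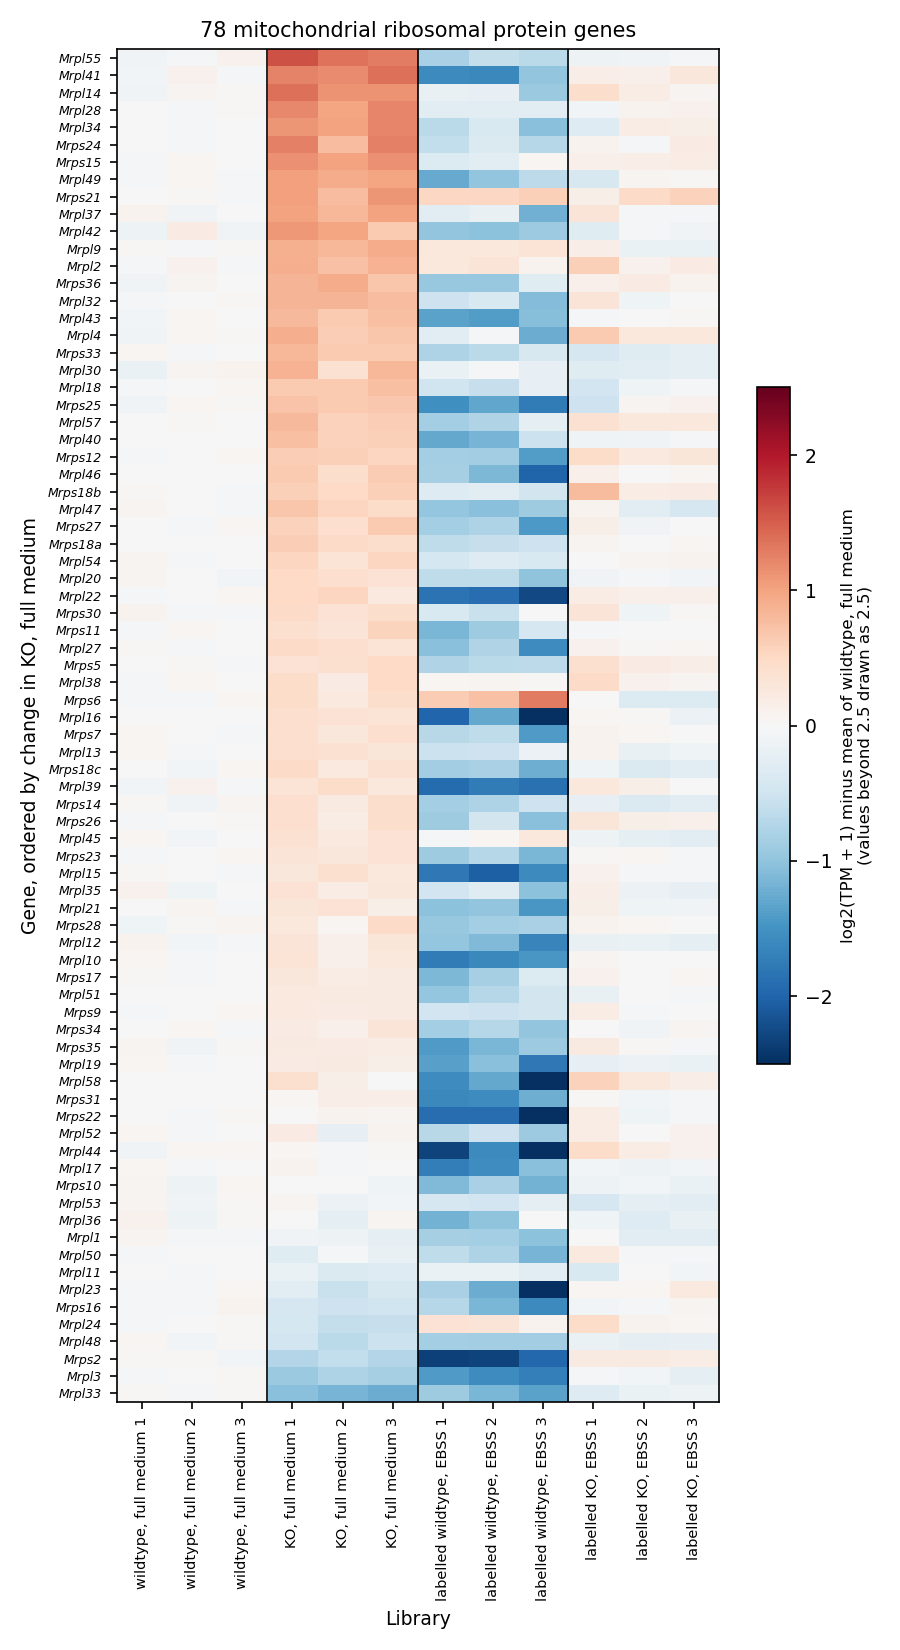
log2(TPM + 1) of the 78 members in each of the 12 libraries, relative to the mean of wildtype, full medium (red, higher; blue, lower; values beyond 2.5 drawn as 2.5), with genes ordered by their change in KO, full medium. The KO, full medium block is mostly red with a blue foot from Mrpl11 to Mrpl33, labelled wildtype, EBSS is mostly blue, and labelled KO, EBSS is pale.

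In cells labelled KO, EBSS was compared with full medium. This comparison shares the KO, full medium libraries with the one above. Most called members were lower in EBSS. Of 78 members, 6 were higher, 39 lower and 33 not called (limma), against 33.3% of all genes called higher and 20.9% lower. With median-of-ratios scaling 4 were higher and 56 lower, against 26.0% and 26.2% of all genes. The members' median log2 change was −0.34 as deposited and −0.49 scaled. Mrpl55 went from 90.9, 76.7 and 73.1 TPM in KO, full medium to 26.7, 27.5 and 28.7 TPM in labelled KO, EBSS, a log2 change of −1.499 (SE 0.10, limma adjusted p = 7.1e-07). Mrpl34, the counterpart of bacterial L34, went from 149, 139 and 161 TPM to 55.0, 78.2 and 76.6 TPM (−1.10, limma adjusted p = 0.00022). Mrpl28 was at 123, 136 and 138 TPM in labelled KO, EBSS (−1.10), and Mrpl49, a mitochondria-specific large-subunit protein, was at 57.0, 79.1 and 77.5 TPM (−1.08). Each was lower in every EBSS library than in any KO, full medium library, a condition on which the named members were chosen. How many of all genes met it in this comparison was not counted.

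The members called higher included Mrpl33, at 238, 267 and 272 TPM in labelled KO, EBSS (log2 change 0.94, SE 0.11, limma adjusted p = 2.5e-05). Mrps2 was at 69.96, 70.3 and 68.5 TPM there (0.91), Mrpl3 at 100, 96.5 and 87.0 TPM (0.74), and Mrpl24, the counterpart of bacterial L24, at 104, 80.2 and 77.3 TPM (0.74). Set beside wildtype, full medium by their group means, with no test, all 78 members in labelled KO, EBSS lay within 0.5 on the log2 scale, from −0.32 for Mrps33 to 0.42 for Mrps18b. In KO, full medium 44 of 78 did so and in labelled wildtype, EBSS 19 (the width of 0.5 was chosen after the values were seen). The same was not counted over all genes, so these counts do not place the members against them. The median tested gene also lay alike, at 21.3 to 23.0 TPM in labelled KO, EBSS and at 22.5 to 22.9 TPM in wildtype, full medium. The value of Mrps18b came from replicate 1 of labelled KO, EBSS, at 204 TPM against 135 and 137 TPM in the other replicates.

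Cells labelled wildtype were compared in the same way. As deposited, most members were lower in EBSS, like most genes, and the balance turned with scaling. Of 78 members, 3 were higher, 66 lower and 9 not called (limma), against 9.25% of all genes called higher and 71.8% lower. With median-of-ratios scaling 24 were higher and 16 lower, against 30.3% and 35.7% of all genes. The members' median was −0.83 as deposited and 0.15 scaled. The members at either end kept their direction under both. Mrps22, a mitochondria-specific small-subunit protein, went from 62.8, 60.3 and 63.7 TPM to 15.8, 15.8 and 4.50 TPM, a log2 change of −2.45 (SE 0.34, limma adjusted p = 3.6e-05; −1.51 scaled). Mrpl16, the counterpart of bacterial L16, went from 63.0, 61.5 and 62.0 TPM to 14.9, 25.1 and 2.98 TPM (−2.42, SE 0.49, limma adjusted p = 0.00078; −1.49 scaled). Both were lowest in replicate 3, the library with many genes listed at 0, and the other 2 libraries were also below every wildtype, full medium library. Without replicate 3 the change was −1.91 for Mrps22 and −1.63 for Mrpl16, both still called. Mrpl44, a large-subunit protein with an RNase III-like fold, went from 27.9, 30.5 and 30.7 TPM to 5.19, 9.21 and 3.50 TPM (−2.22; −1.32 scaled). Mrps2 went from 61.2, 61.2 and 57.3 TPM to 11.1, 11.3 and 14.7 TPM (−2.20, limma adjusted p = 1.8e-08; −1.25 scaled).

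Mrps6, Mrps21 and Mrpl9 were the 3 members called higher as deposited, and the members called higher after scaling were more, as given above. Mrps6, the counterpart of bacterial S6 (ENSMUSG00000039680.10, chromosome 16 from 92058270 to 92112227), was at 143, 143 and 150 TPM in wildtype, full medium and at 224, 243 and 357 TPM in labelled wildtype, EBSS, a log2 change of 0.88 (SE 0.16, limma adjusted p = 0.0003; 1.88 scaled). Its gene model overlaps, on the same strand, those of Gm16310, Gm49711 and Slc5a3. Slc5a3, a sodium-coupled myo-inositol transporter, was at 5.77, 4.88 and 5.52 TPM in wildtype, full medium and at 10.5, 12.3 and 8.57 TPM in labelled wildtype, EBSS. Mrps21 was at 163, 165 and 159 TPM and at 234, 233 and 245 TPM (0.55, limma adjusted p = 0.00074; 1.54 scaled). Mrpl9, the counterpart of bacterial L9, was at 74.9, 71.7 and 75.0 TPM and at 89.0, 89.5 and 94.5 TPM (0.30, limma adjusted p = 0.01; 1.29 scaled). Mrpl23, the counterpart of bacterial L23, showed the unevenness of this group, at 33.8, 25.1 and 6.07 TPM.

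**Figure D4:**
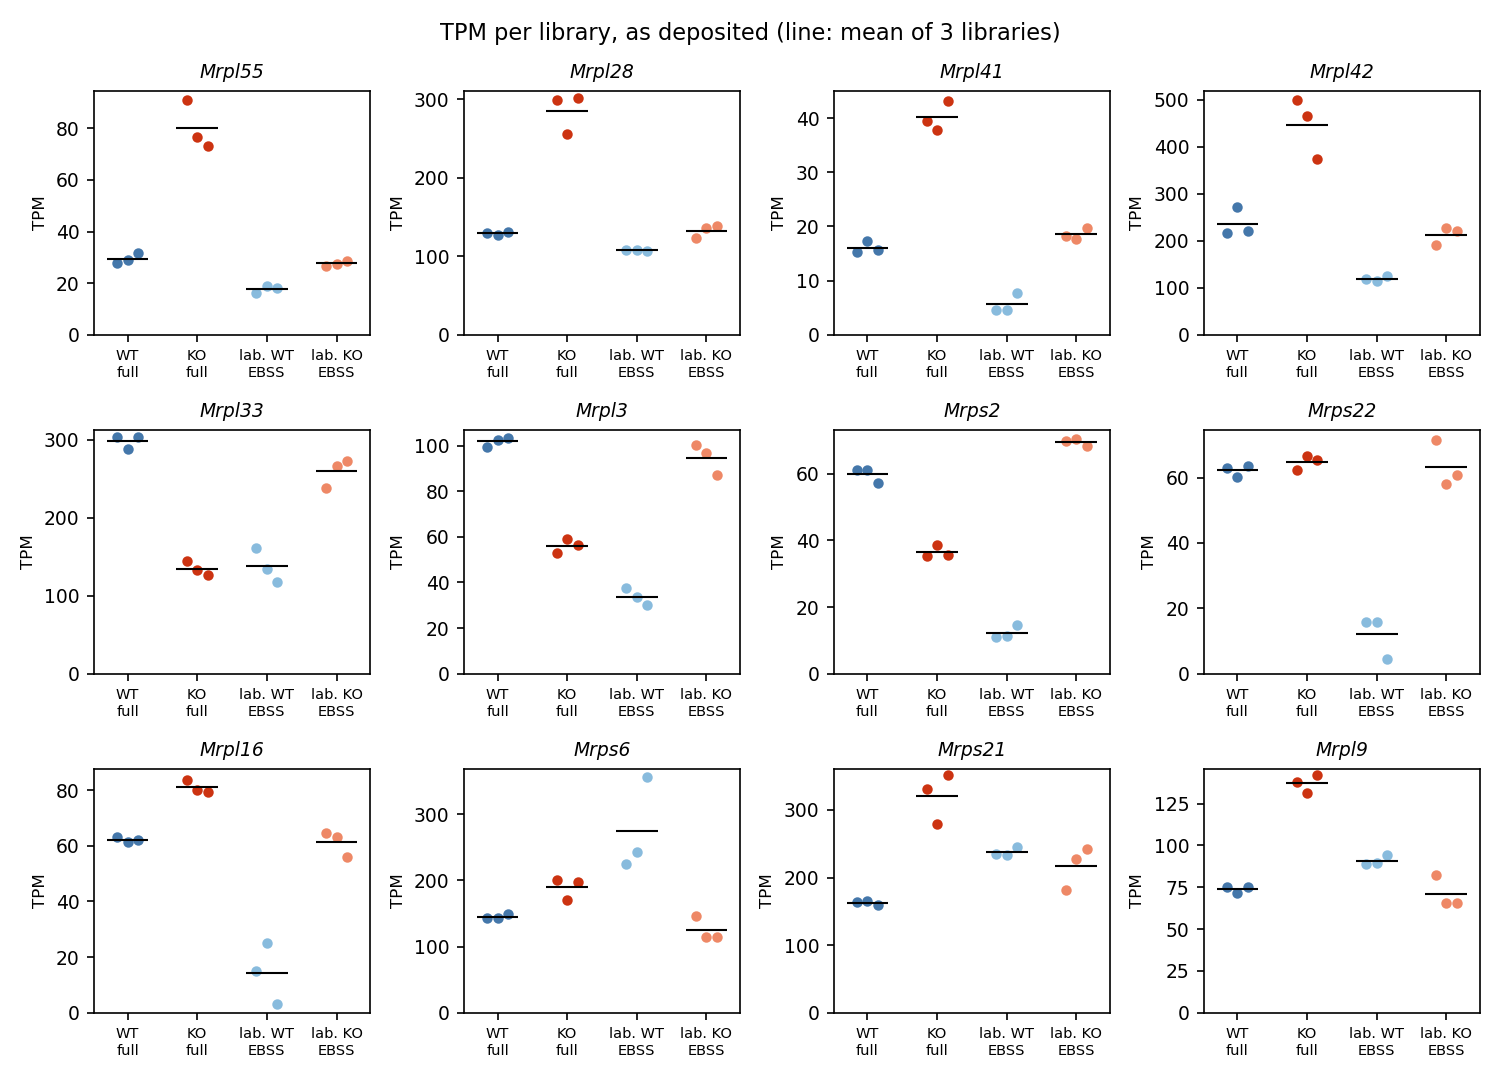
TPM per library as deposited (points; line, mean of 3 libraries) for 12 members in wildtype (WT) and KO, full medium, and in labelled (lab.) wildtype and labelled KO, EBSS. Mrpl55, Mrpl28, Mrpl41 and Mrpl42 peak in KO, full medium, Mrpl33 and Mrpl3 are low in KO, full medium and labelled wildtype, EBSS, and Mrps6 is highest in labelled wildtype, EBSS at 224 to 357 TPM.

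Within EBSS, cells labelled KO were compared with cells labelled wildtype, from the same libraries as in the EBSS comparisons above. As deposited 66 members were higher, 3 lower and 9 not called (limma), against 71.9% of all genes called higher and 8.58% lower. With median-of-ratios scaling the balance turned, to 17 higher and 22 lower, against 34.8% and 29.0% of all genes. The members' median was 0.83 as deposited, 0.08 below that of all genes, and −0.12 scaled. The largest differences were in Mrpl44 (2.47, SE 0.23, limma adjusted p = 1.9e-06; 1.61 scaled), Mrps22 (2.47; 1.56 scaled), Mrps2 (2.41, limma adjusted p = 1.3e-08; 1.497 scaled) and Mrpl16 (2.39; 1.502 scaled), all higher under the KO label. Mrpl44 was at 41.1, 33.8 and 32.0 TPM in labelled KO, EBSS, and Mrps22 at 71.4, 57.9 and 60.6 TPM. The 3 that were lower as deposited were Mrps6 at 146, 115 and 114 TPM in labelled KO, EBSS (−1.11, limma adjusted p = 5.4e-05; −2.06 scaled), Mrpl9 (−0.36; −1.31 scaled) and Mrpl45 (−0.30; −1.24 scaled). Mrpl45, which lies near the exit of the ribosome's tunnel at the inner membrane, was at 40.6, 38.2 and 37.2 TPM in labelled KO, EBSS and at 43.8, 46.4 and 53.9 TPM in labelled wildtype, EBSS.

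The interaction tests whether the difference between EBSS and full medium was unequal under the 2 labels, as labelled KO minus labelled wildtype. As deposited 39 members were higher and 11 lower (limma), against 64.2% and 12.5% of all genes, and with median-of-ratios scaling 8 were higher and 48 lower, against 34.1% and 32.7%. The median of the members was 0.44 as deposited, 0.62 below that of all genes, and −0.68 scaled. Mrps2 (3.11, SE 0.15, limma adjusted p = 1.4e-08; 2.01 scaled), Mrpl44 and Mrps22 were highest in both scalings among the members named for it, and Mrps6 (−1.49, SE 0.22, limma adjusted p = 8.9e-05; −2.63 scaled), Mrpl9 and Mrps21 were negative in both. The sign of the members' median therefore depended on the scaling, while these 6 kept their sign under both scalings with the labels as given. Their signs rest on the EBSS labels. The Rbbp5 level puts both labels in doubt as deposited, and the KO label also after scaling.

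Other genes of mitochondrial gene expression were counted in KO against wildtype in full medium. There, 20.1% of all genes were called higher and 35.8% lower (26.7% and 27.0% scaled). Of 29 mitoribosome assembly factors 7 (24.1%) rose and 10 (34.5%) fell, shares near those of all genes, with a median of −0.31, 0.14 below that of all genes (8 rose and 5 fell scaled). Mpv17l2, an inner membrane protein of mitoribosome assembly, had the largest rise of that list, from 35.1, 32.6 and 33.2 TPM to 183, 146 and 183 TPM (2.31, SE 0.30, limma adjusted p = 5.9e-05). Gtpbp10, a GTPase of large-subunit assembly, had the largest fall, from 24.4, 21.4 and 22.8 TPM to 4.84, 5.497 and 4.18 TPM (−2.04, SE 0.17, limma adjusted p = 2.6e-06). Of 13 mitochondrial translation factors 2 rose and 2 fell (5 and 1 scaled), with the elongation factor Tsfm at 0.70 and the release factor Mtrf1 at −0.80, a call lost without any 1 of the 6 full medium libraries and with scaling. Of 20 mitochondrial tRNA synthetases and amidotransferase subunits 3 rose and 4 fell (5 and 3 scaled), with Gatc at 1.11 and Ears2 at −0.81. Of 23 genes of mitochondrial DNA replication, transcription and RNA processing 4 rose and 3 fell (5 and 0 scaled), with the tRNA-processing enzyme Elac2 at 0.73 and the polymerase subunit Polg2 at −0.49, a call lost with scaling and without replicate 1 or 2 of KO or replicate 2 or 3 of wildtype. Of 16 regulators of mitochondrial biogenesis 15 were tested, and 5 rose and 4 fell (5 and 3 scaled). The coactivator Ppargc1a was at 0.930, 0.857 and 0.813 TPM in wildtype and at 4.89, 6.08 and 5.10 TPM in KO (1.76, limma adjusted p = 1.4e-05), and Hcfc1, a cofactor also found in SET1 complexes, fell by 1.25.

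Complex I subunits and cytosolic ribosomal proteins are the groups nearest to the members by product and by role. Of 36 complex I subunits 32 rose and 1 fell in KO, full medium (32 and 0 scaled), with a median of 0.62, against 0.38 for the members, and in labelled KO, EBSS against KO, full medium 1 was higher and 29 lower (0 and 32 scaled), with a median of −0.71. Of 82 tested cytosolic ribosomal protein genes 33 rose and 17 fell in KO, full medium (42 and 8 scaled). The members parted from them in labelled wildtype, EBSS against wildtype, full medium, where 79 of the 82 were higher and 2 lower as deposited (80 and 0 scaled), with a median of 0.94 against −0.83 for the members (1.94 against 0.15 scaled). These medians were set side by side without a test of the difference. Of all genes, 20.1% were called higher and 35.8% lower in KO, full medium (26.7% and 27.0% scaled). For labelled KO, EBSS against KO, full medium the shares were 33.3% and 20.9% (26.0% and 26.2% scaled). For labelled wildtype, EBSS against wildtype, full medium they were 9.25% and 71.8% (30.3% and 35.7% scaled).

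**Figure D5:**
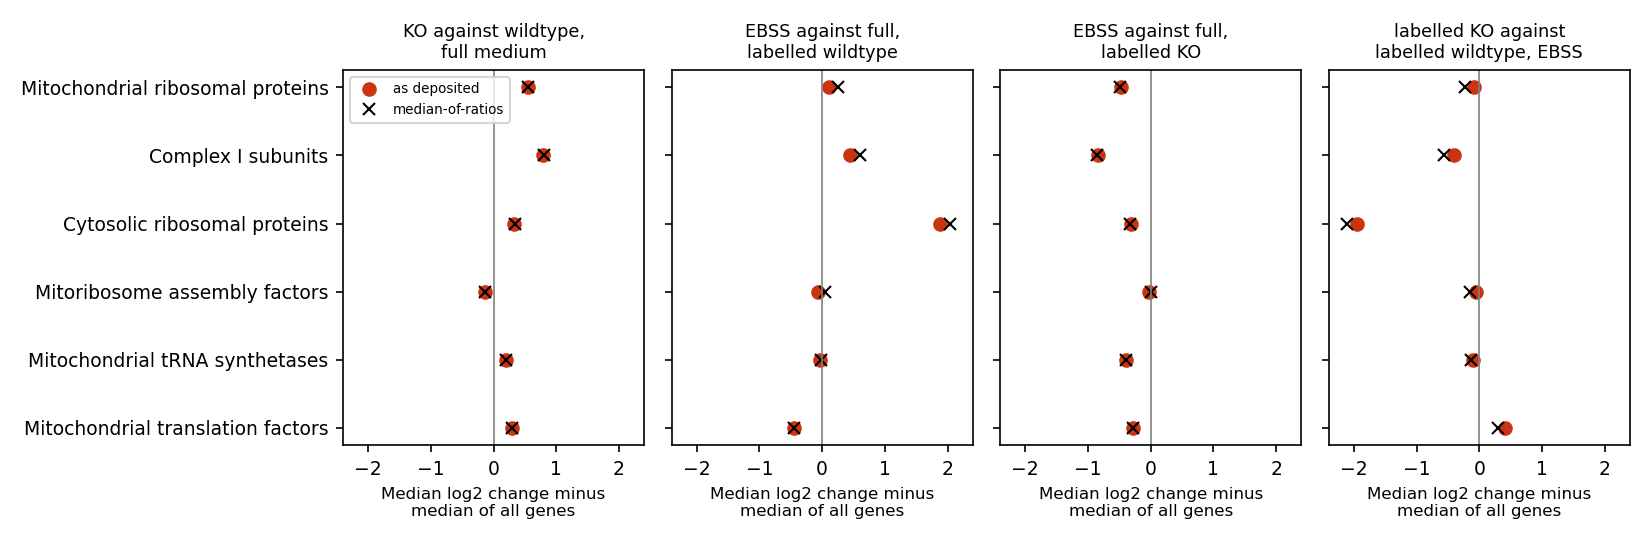
Median log2 change of the mitochondrial ribosomal protein genes and 5 related lists in the 4 comparisons, minus the median of all tested genes (dots, as deposited; crosses, median-of-ratios scaled). The members lie 0.54 above all genes in KO against wildtype, full medium, and cytosolic ribosomal proteins stand 1.88 above all genes in labelled wildtype, EBSS against full medium.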

How the data were processed

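Poly(A) RNA was sequenced in 12 libraries made with a TruSeq kit after DNase digestion, per the labels' protocols. The authors deposited TPM per gene symbol in 1 table, and the submitters' processing notes name Salmon and mm10. Which Salmon version, annotation and strand setting they used is not given in the sources used here. TPM keeps no read depth, so no counting interval or count model was used, and low values are of unknown precision. Columns summed to 92.31% to 99.37% of 1000000.

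Groups came from sample titles. The 12653 genes that reached 1 TPM in 3 or more libraries were fitted on log2(TPM + 1) with limma 3.58.1 (R 4.3.3), with 1 mean per group, moderated variances and a variance trend. All groups shared 1 estimate of the spread of each gene. P-values are two-sided and Benjamini-Hochberg adjusted over all genes, with 0.05 as threshold. Lengths and coordinates are from GENCODE vM21 (GRCm38), which held 98.1% of tested symbols, and may not be the annotation behind the table. Figures used matplotlib 3.10.9.

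The members, lists and alternatives were chosen with earlier results of these data known. Named members were the 4 largest rises and falls per comparison (called, at least 5 TPM in the higher group, no overlap of libraries), 3 in each direction for the interaction, the 3 highest and 3 lowest by mean level, the S18 paralogs, misnamed members and members of small counts. Mrpl4, Mrpl11, Mrpl23, Mrpl32, Mrpl36, Mrpl40, Mrpl46, Mrpl58, Mrps12, Mrps16 and Mrps33 were named after their values were seen, as was Mrpl2. Of the other lists the largest called rise and fall in KO, full medium were named, beside the mitoribosomal proteins not named Mrp.

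Alternatives were 3 other scalings, a pseudocount of 0.1, no filter, a mean of at least 5 TPM, fits on 6 libraries, the replicate number as a block, removal of each library's lowess trend (span 0.3) on transcript length after median-of-ratios scaling, and leaving out libraries.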

Additional observations from a re-analysis of the deposited data

Results flagged for a closer look

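For the interaction of label and medium, the test of the difference itself called 39 of 78 members higher (50%) and 11 lower (14.1%) as deposited, against 64.2% and 12.5% of all genes, so members were called higher in a smaller share than all genes and lower in a share near theirs. Among those named, Mrps2 was at 3.11, Mrpl44 at 2.45 and Mrps22 at 2.41, so their difference between EBSS and full medium was more negative under the wildtype label than under the KO label. Mrps6 was at −1.49, Mrpl9 at −1.24 and Mrps21 at −1.11. The Rbbp5 level goes against the labels in EBSS, and the counts turn to 8 higher and 48 lower with median-of-ratios scaling, while these 6 genes kept their sign under both scalings with the labels as given.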

How the results depend on the processing

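The counts of members in KO against wildtype, full medium (47 higher, 7 lower) stayed within 1.5 times under each scaling, filter, pseudocount and left-out library. Between the labels in EBSS, 17, 22 and 23 members were higher and 22, 20 and 23 lower with median-of-ratios scaling, quantile normalization and the length trend removed, and 9 were lower without cytosolic ribosomal protein genes. For EBSS in labelled wildtype the same 3 settings gave 24, 17 and 22 higher and 16, 21 and 25 lower. There, 9 were higher without cytosolic ribosomal protein genes, and 5 in the fit on 6 libraries, without replicate 1 of labelled KO, EBSS, without replicate 3 of labelled wildtype, EBSS, and without both. Without both, 59 were lower for EBSS in labelled KO, and 18 in the interaction. For the interaction the 3 settings gave 8, 11 and 14 higher and 48, 37 and 33 lower, and leaving out cytosolic ribosomal protein genes gave 20 and 25. The cause was not tested. Shares of all genes called were counted as deposited and with median-of-ratios scaling. With the length trend removed they were counted for KO against wildtype, full medium alone. The other counts here and below are given without such shares and do not place the members against all genes. The fit on 6 libraries was not run for the interaction, which needs all 4 groups.

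Leaving out 1 library at a time gave 35 to 57 higher and 5 to 8 lower for KO against wildtype, full medium, 63 to 68 and always 3 for the labels in EBSS, 3 to 5 and 62 to 68 for EBSS in labelled wildtype, 5 to 8 and 31 to 52 for EBSS in labelled KO, and 35 to 44 and 10 to 15 for the interaction. Same-numbered libraries deviated from their group means with correlations of −0.07 to 0.08, and differently numbered ones with −0.10 to 0.09. No pairing by number was seen, which does not show that same-numbered libraries were handled apart. With the replicate block the counts were 46 and 6, 66 and 3, 4 and 67, 6 and 39, and 39 and 12 in the same order.

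Of 1529 values of named genes under alternatives, 1474 kept direction and side of the threshold, 45 lost the call, 3 gained it and 7 reversed. Mrpl17 in KO, full medium was at −0.027 without replicate 1 of KO and at −0.009 without replicate 2 of wildtype, in a range up to 0.033 over left-out libraries. Ptcd3 was at 0.129 with the length trend removed and at 0.081 with median-of-ratios scaling. Rbbp5 was at −0.059 between labels in EBSS with the length trend removed, and at 0.112 (length) and 0.052 (quantile) for EBSS in labelled wildtype. TPM holds no depth, which limits the low members to an unknown extent.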
